A study of Mus musculus with 96 samples.

Results

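The samples labelled vascular came from wild-type mice and from Scx-/- mice, which lack scleraxis, all aged 3 weeks and 3 per genotype, with no treatment named. They were 6 of the 96 libraries of a survey of 16 tissues. The authors took the vascular samples to be contaminated with brown fat and left the tissue out of their later comparisons. The members were chosen by column label alone, and of 41575 gene symbols in the table, the 12172 with a count in at least 1 of these 6 libraries were compared between the genotypes. RNA was prepared from quick-frozen organs by MuSeq, a pooled method that barcodes every sample at the reverse transcription step and reads the 3′ part of its polyadenylated RNA. The sources used here do not give the deleted part of Scx, the strain, the sex of the mice, the vessel taken, or whether the libraries came from separate mice, so p-values measure the spread between these libraries.

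Scleraxis is a basic helix-loop-helix transcription factor known for its role in tendons and other force-bearing connective tissue. The wall of a large artery holds endothelial cells, smooth muscle with elastic sheets, and an outer coat of fibroblasts, and in rodents brown fat surrounds the thoracic aorta. Brown adipocytes burn fatty acids to make heat through Ucp1, a protein that lets protons leak back across the inner mitochondrial membrane, and noradrenaline switches the process on through beta-adrenergic receptors, the G protein subunit encoded by Gnas, and cyclic AMP.

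Ucp1 was lower in Scx-/- than in wild-type vascular samples. In CPM, a gene's count scaled to the same total in every library, the wild-type libraries held 2790, 7741, and 5537 of Ucp1 in replicates 1, 2, and 3, and the Scx-/- libraries held 2443, 1452, and 939. Every Scx-/- library was below every wild-type library, although Scx-/- replicate 1 was close to wild-type replicate 1. The means were 5356 ± 2480 CPM (SD, n = 3) and 1611 ± 764.5 CPM (SD, n = 3), a ratio of 3.32. The fitted log2 fold change was -2.03 (SE 0.29, adjusted p = 1.71e-08 in the quasi-likelihood test of edgeR, with the Benjamini-Hochberg adjustment over all genes tested). The adjusted p was 0.133 with DESeq2, 0.0708 with edgeR's filter for low counts (filterByExpr), and 0.441 in a joint fit with bladder and stomach, and it was under 0.05 in the other 14 of 17 alternative fits. In RefSeq's GRCm38.p6 annotation, the assembly behind mm10, Ucp1 lies at chr8:83290348-83298456.

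The 250 bases before the annotated starts of Ucp1 and of 4 of the 5 other brown adipocyte genes that were lower in Scx-/- samples at an unadjusted p under 0.05 and an absolute log2 fold change above 1, the thresholds of the study, are shown because these genes share a cell type and a direction. The fifth, Cidea, is not shown. They are read 5′ to 3′ on the gene's own strand from RefSeq's GRCm38.p6 table, in which all 5 genes were found. The windows are chr8:83290098-83290347 (plus strand) for Ucp1, chr7:30183921-30184170 (plus) for Cox7a1, chr15:100468761-100469010 (plus) for Letmd1, chr19:34879456-34879705 (minus) for the first of the 2 listed starts of Pank1, and chr12:90739039-90739288 (minus) for Dio2. Capitals mark 4 short motifs on either strand: CANNTG, the E-box bound by helix-loop-helix factors, TGACG, the core of the cyclic AMP response element, AGGTCA, the core site of many nuclear receptors, and TATAAA, the TATA box.
Ucp1: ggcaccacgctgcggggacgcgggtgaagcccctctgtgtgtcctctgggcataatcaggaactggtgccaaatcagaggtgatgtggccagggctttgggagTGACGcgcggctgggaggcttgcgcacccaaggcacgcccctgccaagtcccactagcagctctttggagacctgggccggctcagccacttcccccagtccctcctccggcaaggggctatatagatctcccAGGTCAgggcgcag
Cox7a1: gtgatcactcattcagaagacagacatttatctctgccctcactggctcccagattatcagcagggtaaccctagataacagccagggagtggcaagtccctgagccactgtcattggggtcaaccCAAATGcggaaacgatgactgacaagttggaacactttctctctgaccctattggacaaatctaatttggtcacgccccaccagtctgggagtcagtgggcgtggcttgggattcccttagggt
Letmd1: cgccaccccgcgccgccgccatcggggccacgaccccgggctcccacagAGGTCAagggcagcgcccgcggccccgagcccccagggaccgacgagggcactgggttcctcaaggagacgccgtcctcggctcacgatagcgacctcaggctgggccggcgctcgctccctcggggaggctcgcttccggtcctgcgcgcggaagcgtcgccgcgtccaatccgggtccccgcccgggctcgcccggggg
Pank1: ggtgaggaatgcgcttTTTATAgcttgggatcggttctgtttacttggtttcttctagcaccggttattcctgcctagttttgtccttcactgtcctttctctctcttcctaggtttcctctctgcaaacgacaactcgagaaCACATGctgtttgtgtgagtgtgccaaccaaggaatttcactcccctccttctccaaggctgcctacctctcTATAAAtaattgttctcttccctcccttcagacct
Dio2: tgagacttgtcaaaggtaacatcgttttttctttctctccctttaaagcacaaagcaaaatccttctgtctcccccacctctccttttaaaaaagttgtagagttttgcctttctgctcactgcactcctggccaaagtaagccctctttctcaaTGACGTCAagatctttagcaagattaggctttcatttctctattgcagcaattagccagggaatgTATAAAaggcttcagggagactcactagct
The Ucp1 window held TGACG once, beginning at position -147 from the start, and AGGTCA once, at -14. The Letmd1 window held AGGTCA once, at -201. The Dio2 window held TGACG on both strands at overlapping places, -95 and -92, and TATAAA at -30. The Pank1 window held TATAAA at -234, on the other strand, and at -35. CANNTG was in the windows of Cox7a1, at -124, and of Pank1, at -107, and in none of the other 3. Of 32851 RefSeq promoter windows of the same length, 66.2% held CANNTG, 17.8% TGACG, 14% AGGTCA, and 12.4% TATAAA. No motif was in all 5 windows. A match is a run of letters and not a measured binding site, and its absence covers only these 250 bases.

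**Figure D1:**
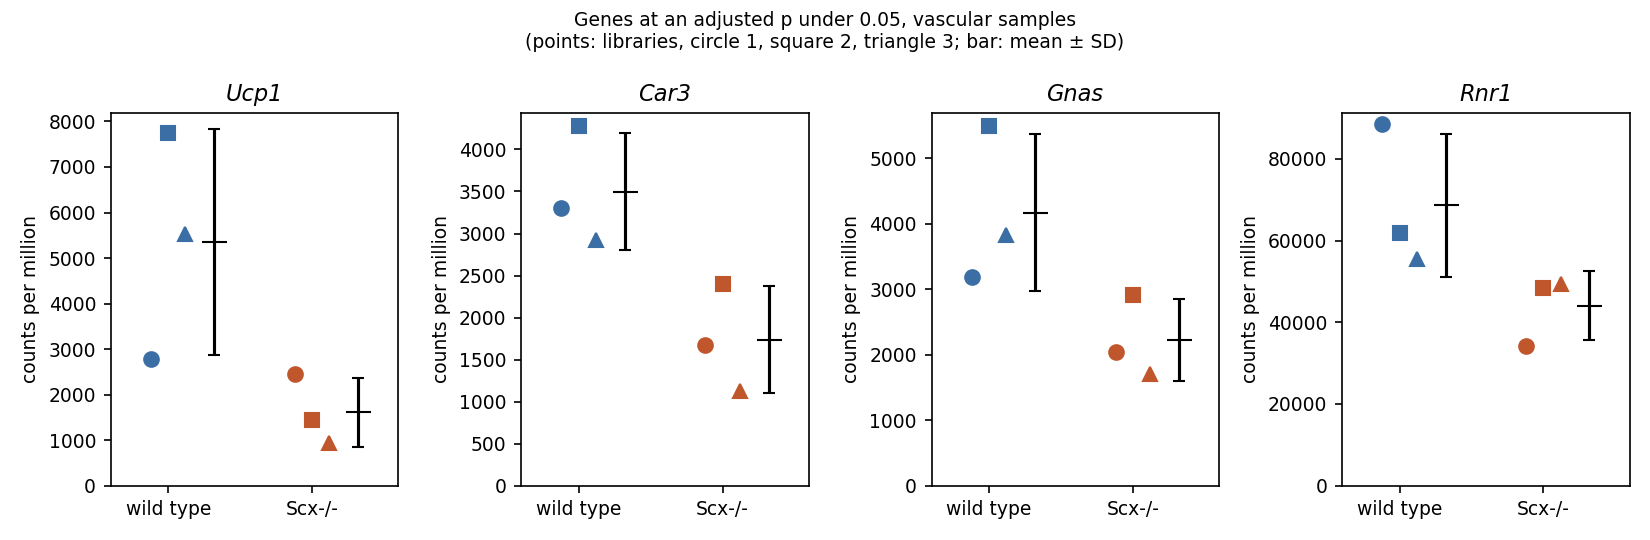
CPM of Ucp1, Car3, Gnas, and Rnr1 in each of the 3 wild-type and 3 Scx-/- vascular libraries, on linear axes from 0, with the mean and SD of each genotype beside the points. For each gene all 3 Scx-/- libraries lie below all 3 wild-type libraries, and for Ucp1 the wild-type libraries range from 2790 to 7741 CPM.

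Across all 12172 genes tested, 4 reached an adjusted p under 0.05, which is 0.0329%: Ucp1, Car3, Gnas, and Rnr1, each lower in Scx-/- samples with no overlap between the genotypes. The study thresholds, which make no adjustment for the number of genes, were passed by 510 genes (4.19%), of which 208 were higher (1.71%) and 302 lower (2.48%). The number at an unadjusted p under 0.05 alone was 528, where such a p is reached by about 1 gene in 20 when no gene differs. Of the genes past the study thresholds, 164 of the higher ones had no count in any wild-type library and 189 of the lower ones none in any Scx-/- library. Libraries were scaled by TMM, which takes the scale from a trimmed mean of the log ratios between libraries, and RLE size factors take it from the median ratio. With TMM the median log2 fold change of all genes was -0.51, against -0.30 with RLE size factors and -0.14 with library totals, and the share of higher genes among those called was 40.8%, 55.2%, and 67.3%. The median of a gene list is therefore set beside -0.51. For some lists the genes with a mean of at least 50 CPM are also set beside -0.15, the median of all such genes. Of the 3173 genes with a mean of at least 50 CPM, 56.9% had a log2 fold change below 0, and 4.79% passed the study thresholds, 1.36% as higher and 3.44% as lower.

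The libraries differed in depth. Wild-type replicates 1, 2, and 3 held 354795, 154625, and 218351 counts and Scx-/- replicates 152689, 77132, and 89461, so that every Scx-/- library was shallower than every wild-type library. Thinning all 6 to 77132 counts left 336 genes past the study thresholds, with a Ucp1 log2 fold change of -2.0. At that depth Ucp1 and Rnr1 kept an adjusted p under 0.05, Car3 (0.0842, edgeR) and Gnas (0.127) did not, and the beta-globin gene Hbb-bt was added. The libraries also differed in sex-linked transcripts. Xist, the RNA that coats the inactive X chromosome, was at 326.9, 0, and 393.9 CPM in the wild-type replicates and 818.7, 0, and 0 CPM in the Scx-/- replicates, and Y-linked genes were counted only in the 3 libraries without Xist. Among the libraries with Xist, Ucp1 was at 2790 and 5537 CPM in wild type and 2443 in Scx-/-, and among those without it at 7741 in wild type and 1452 and 939 in Scx-/-. With a term for Xist-positive libraries, added after the values were seen, the Ucp1 log2 fold change was -2.02 (adjusted p = 8.47e-07, edgeR) and 254 genes passed the study thresholds. Rnr1 also kept an adjusted p under 0.05 in that fit, Car3 (0.0673) and Gnas (0.0733) did not, and Rnr2 and Hbb-bt were added.

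Scx itself could not check the genotype labels at this depth. It had 4 counts in wild-type replicate 1, or 11.3 CPM, and none in the other 5 libraries. For a library with no count the 3-count limit was 13.7 to 38.9 CPM, above the level in the 1 library that had any.

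Car3 encodes carbonic anhydrase 3, an abundant cytosolic protein of fat cells. It was at 3298, 4275, and 2926 CPM in wild-type libraries and at 1677, 2398, and 1129 CPM in Scx-/- libraries. The genotypes did not overlap, and the log2 fold change was -1.42 (SE 0.31, adjusted p = 0.0157, edgeR). Gnas encodes the stimulatory G protein alpha subunit that couples beta-adrenergic receptors to adenylyl cyclase, and it is subject to imprinting. Its values were 3182, 5497, and 3829 CPM against 2043, 2917, and 1710 CPM, again without overlap, with a log2 fold change of -1.29 (SE 0.29, adjusted p = 0.0312, edgeR). The RefSeq annotation places Car3 at chr3:14863538-14872381 and Gnas at chr2:174284320-174346744. Both calls were less steady than that of Ucp1: with RLE size factors the adjusted p was 0.208 for Car3 and 0.308 for Gnas, and of the 6 fits that each left out 1 library, Car3 kept an adjusted p under 0.05 only without wild-type replicate 3 (0.0349, edgeR) or Scx-/- replicate 2 (0.000756) and Gnas only without Scx-/- replicate 2 (0.00277).

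Rnr1 is the small ribosomal RNA of mitochondria, transcribed from mitochondrial DNA. It took 8.85%, 6.19%, and 5.55% of the counts of wild-type replicates 1, 2, and 3, and 3.43%, 4.83%, and 4.94% of those of Scx-/- replicates. The log2 fold change was -1.09 (SE 0.15, adjusted p = 1.46e-09, edgeR). The value rested in part on wild-type replicate 1: without it the log2 fold change was -0.68 and the adjusted p 0.375, and without Scx-/- replicate 2 the adjusted p was 0.772 at a log2 fold change of -1.07. In edgeR's test the adjusted p was 0.199 with library totals and 0.261 in the joint fit with bladder and stomach, and it was also above 0.05 with filterByExpr. With DESeq2 it was 0.998. Rnr2, the large ribosomal RNA of mitochondria, took 18.4%, 10.4%, and 9.90% in wild type and 6.91%, 6.71%, and 8.31% in Scx-/-. The genotypes did not overlap for Rnr2 either, but its log2 fold change of -1.28 had an adjusted p of 0.672 in edgeR's test. Leaving both transcripts out of the totals left the Ucp1 log2 fold change at -2.03. These are the only 2 transcripts of the mitochondrial genome among the symbols analysed here.

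The brown adipocyte list held 19 genes with a count, and 6 of them were lower past the study thresholds and none higher, beside 2.48% lower and 1.71% higher among all genes. The median log2 fold change of the list was -1.25, and 16 of its genes were below 0, against 60.3% of all genes. Relative to the median of all genes the list stood at -0.74 with TMM, -0.64 with RLE, -0.66 with library totals, and -0.14 without Scx-/- replicate 1. The number of its genes past the thresholds was 5 with RLE, 3 with library totals, and from 4 to 8 when each library was left out in turn. The list was chosen with earlier results on Ucp1 known, and its count includes Ucp1.

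Beside Ucp1, the lower members of the brown adipocyte list served different functions. Pank1, which makes the precursor of coenzyme A, was at 389.0, 388.0, and 430.5 CPM in wild type and 52.4, 129.6, and 145.3 CPM in Scx-/-. Cox7a1, the muscle and brown fat form of a cytochrome c oxidase subunit, was at 529.9, 711.4, and 503.8 CPM against 216.1, 388.9, and 245.9 CPM. The genotypes were apart for both genes, with log2 fold changes of -2.32 (SE 0.70) and -1.45 (SE 0.54), and each had an adjusted p of 0.672 in edgeR's test. Pank1 passed the study thresholds under every one of the 17 alternatives, and Cox7a1 under all but library totals.

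Dio2 encodes the enzyme that activates thyroid hormone within brown adipocytes. It was at 53.5, 362.2, and 247.3 CPM in wild type and 26.2, 64.8, and 22.4 CPM in Scx-/-, where only replicate 2 reached above the lowest wild-type library, and its log2 fold change was -2.86 (SE 1.06). Cidea, a protein of lipid droplets, was at 1604, 1927, and 1305 CPM against 1231, 1361, and 424.8 CPM and had a log2 fold change of -1.09 (SE 0.37). Letmd1, a mitochondrial protein needed for heat production in brown fat, was at 284.7, 653.2, and 316.0 CPM against 288.2, 90.8, and 167.7 CPM, with a log2 fold change of -1.46 (SE 0.64). In these 3 genes the genotypes overlapped by 1 library, and none passed the thresholds in every fit. On leaving out single libraries Dio2 lost them without wild-type replicate 2 (unadjusted p = 0.113, edgeR) or 3, Cidea without Scx-/- replicate 3 or wild-type replicate 1, and Letmd1 without wild-type replicate 2 or Scx-/- replicate 2. Over all alternative fits Dio2 passed in 14 of 16, Cidea in 9 of 17, and Letmd1 in 11 of 17.

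Not every brown adipocyte gene had a low value in Scx-/- samples. Cox8b, a further cytochrome c oxidase subunit of brown fat, was at 2692, 3454, and 1914 CPM in wild type and 2469, 2878, and 2135 CPM in Scx-/-, and the genotypes overlapped (log2 fold change -0.51, SE 0.31). Kcnk3, a potassium channel, overlapped as well, at 236.8 to 614.4 CPM against 67.1 to 648.2 CPM. Ppargc1a, the coactivator of mitochondrial genes, spanned 67.6 to 103.5 CPM in wild type and 19.6 to 156.5 CPM in Scx-/-, and Prdm16, a regulator of brown fat identity, 0 to 13.7 and 12.96 to 55.9 CPM. Slc27a2, a fatty acid transporter and acyl-CoA synthetase, was the 1 member whose 3 Scx-/- libraries, at 131.0, 38.9, and 145.3 CPM, all lay above the wild-type libraries at 8.46, 0, and 32.1 CPM, with an adjusted p of 0.672 in edgeR's test. Zic1 and Cpt1b had no count in any of the 6 libraries, and Adrb3, the beta-adrenergic receptor of fat cells, was counted in 4 of them at 28.2 to 77.9 CPM.

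The brown adipocyte list took 0.917%, 1.70%, and 1.13% of counts in wild-type replicates 1, 2, and 3 and 0.797%, 0.743%, and 0.473% in the Scx-/- replicates. The genotypes did not overlap. Of the 35 lists, the brown adipocyte and mitochondrial genome lists were lower in this way and 4 others were higher. Among all genes tested, 5.06% were lower and 2.4% higher without overlap. Full separation of 3 against 3 libraries has a two-sided p of 0.1 in an exact permutation test, so some of the 35 lists can separate when none differs. With mitochondrial transcripts left out of the totals the beta-adrenergic, endothelial, and imprinted lists were lower without overlap as well. Without Ucp1 the shares were 0.638%, 0.929%, and 0.581% against 0.553%, 0.598%, and 0.379%, which overlapped, since Scx-/- replicate 2 lay above wild-type replicate 3. In bulk tissue, fewer cells of a type and less RNA per cell cannot be told apart.

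Ratios within a library show how far Ucp1 moved against other fat genes. For every 100 counts of the other brown adipocyte genes, Ucp1 had 43.7, 83.3, and 95.3 counts in wild type and 44.2, 24.3, and 24.8 in Scx-/-. Scx-/- replicate 1 lay just above the lowest wild-type library, and the other 2 Scx-/- libraries were below all wild-type libraries. Per 100 counts of the adipocyte list Ucp1 had 9.63, 22.8, and 20.2 counts in wild type and 8.76, 3.52, and 4.13 in Scx-/-. Car3 had 12.8, 14.4, and 11.9 counts per 100 of the other adipocyte genes in wild type and 6.40, 6.17, and 5.22 in Scx-/-, with replicates of a genotype close to each other. Gnas had 11, 16.2, and 13.9 per 100 adipocyte counts against 7.33, 7.07, and 7.52, although Gnas is not made by fat cells alone. For Car3 and Gnas the genotypes did not overlap. An exact permutation test of 3 against 3 libraries cannot go below a two-sided p of 0.1, so these ratios are given without a test.

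**Figure D2:**
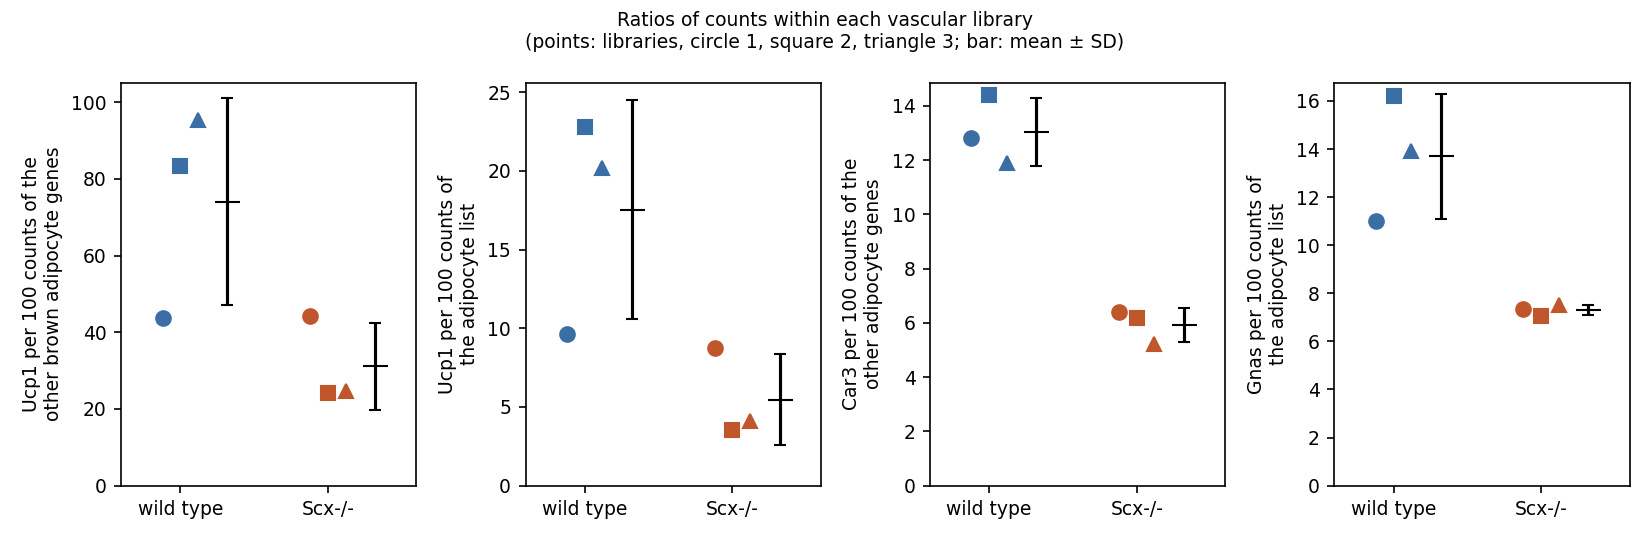
Counts of Ucp1, Car3, and Gnas per 100 counts of fat genes in each vascular library, on linear axes from 0, with the mean and SD of each genotype. Ucp1 per 100 other brown adipocyte counts overlaps at 43.7 and 44.2 between the replicates numbered 1, and Car3 separates the genotypes at 11.9 to 14.4 against 5.22 to 6.40.

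The adipocyte list, of genes of fat cells of any kind, took 2.90%, 3.39%, and 2.75% of counts in wild type and 2.79%, 4.13%, and 2.27% in Scx-/-, and its median log2 fold change was -0.26 over 23 genes, with the sign turning to 0.16 with library totals. Its median minus that of all genes was 0.25, 0.57 with the replicate block, and 0.05 with DESeq2, and on leaving out each library it ran from -0.03 (without wild-type replicate 3) to 1.08 (without Scx-/- replicate 1). For its 20 genes with a mean of at least 50 CPM the median was -0.20, beside -0.15 for all such genes. Fabp4, the fatty acid carrier of adipocytes, was at 5674, 5432, and 5184 CPM in wild type and 5351, 7507, and 3789 CPM in Scx-/-, and the genotypes overlapped. Lpl, which frees fatty acids from lipoproteins, and Pnpla2, which opens the breakdown of stored triglyceride, overlapped too, with log2 fold changes of -0.34 (SE 0.28) and -0.05 (SE 0.30).

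Of the 23 adipocyte genes, 4 were lower past the study thresholds: Car3, Gpd1, Tusc5, and Lep, where 2.48% of all genes and 3.44% of those of at least 50 CPM were lower. Gpd1, which supplies glycerol phosphate for triglyceride, was at 3363, 4417, and 2249 CPM against 2345, 2930, and 849.5 CPM (log2 fold change -1.12, SE 0.30, adjusted p = 0.560, edgeR). Tusc5, a regulator of insulin-stimulated glucose transport, was at 53.5, 381.6, and 123.7 CPM against 0, 51.9, and 0 CPM. Lep, the hormone leptin, had counts in wild-type replicates 1 and 2 only, at 78.9 and 84.1 CPM, and the pooled counts give a level at least 6-fold lower in Scx-/- libraries, from a limit of 3 counts over the group. Gpd1 was no longer past the thresholds with RLE, without Scx-/- replicate 3 (log2 fold change -0.72), or without wild-type replicate 1 (-0.96), Tusc5 without wild-type replicate 2 (unadjusted p = 0.180, edgeR), and Lep on leaving out any library other than wild-type replicate 3.

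The lipogenesis list, of enzymes that build fatty acids and triglyceride, had a median log2 fold change of -0.92 over 17 genes, beside -0.51 for all genes, and 4 were lower past the study thresholds, as were 2.48% of all genes. Scd1, which desaturates fatty acids, was at 118.4, 316.9, and 229.0 CPM in wild type and 58.9, 51.9, and 33.5 CPM in Scx-/-. Me1, which makes NADPH for fatty acid synthesis, was at 2.82, 258.7, and 36.6 CPM and at 0 in all Scx-/- libraries. Fasn, the fatty acid synthase, was at 73.3, 1753, and 160.3 CPM against 85.1, 207.4, and 368.9 CPM. Wild-type replicate 2 alone was high for Fasn, and it was the highest library for Me1, Scd1, and Agpat2, an enzyme that makes phosphatidic acid. Without that library the log2 fold change of Fasn was 0.45, the list's median was -0.37, which was 0.05 above the median of all genes in that fit, and 1 of the 17 genes passed. Without Scx-/- replicate 1, 7 of them passed while the list's median stood 0.35 above that of all genes, where it was -0.42 with all libraries and -0.07, with 1 gene past the thresholds, with the replicate block. Fasn did not pass without Scx-/- replicate 2 either (unadjusted p = 0.179, edgeR).

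No fatty acid oxidation gene of 20 tested passed the study thresholds, and their median of -0.46 was 0.05 above that of all genes. Without Scx-/- replicate 2, 3 of them passed, beside 244 lower of 11932 genes in that fit, and on leaving out each library their median minus that of all genes ran from -0.23 (without wild-type replicate 1) to 0.80 (without Scx-/- replicate 1). The 19 fatty acid oxidation genes with a mean of at least 50 CPM had a median of -0.41, beside -0.15 for all such genes. In the nuclear-encoded respiratory chain list, 42 of 43 genes were below 0 with TMM, as were 60.3% of all genes and 56.9% of those of at least 50 CPM, and 22 with library totals, and the medians were -0.45 and -0.01, beside -0.51 and -0.14 for all genes. Uqcrh, a subunit of complex III, was at 1009, 1138, and 911.4 CPM in wild type and 844.9, 609.3, and 514.2 CPM in Scx-/-, and Cycs, cytochrome c, at 107.1, 271.6, and 316.0 CPM against 72.0, 12.96, and 134.1 CPM. Those 2 were the only members of the list past the thresholds, beside 2.48% lower among all genes, and neither passed with RLE or library totals. Without Scx-/- replicate 1, 6 respiratory chain genes passed, beside 312 lower of 11661 genes in that fit. The list's median minus that of all genes was 0.05, and on leaving out each library it ran from -0.20 (without wild-type replicate 3) to 0.84 (without Scx-/- replicate 1). For its 39 genes with a mean of at least 50 CPM the median was -0.40, beside -0.15 for all such genes.

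**Figure D3:**
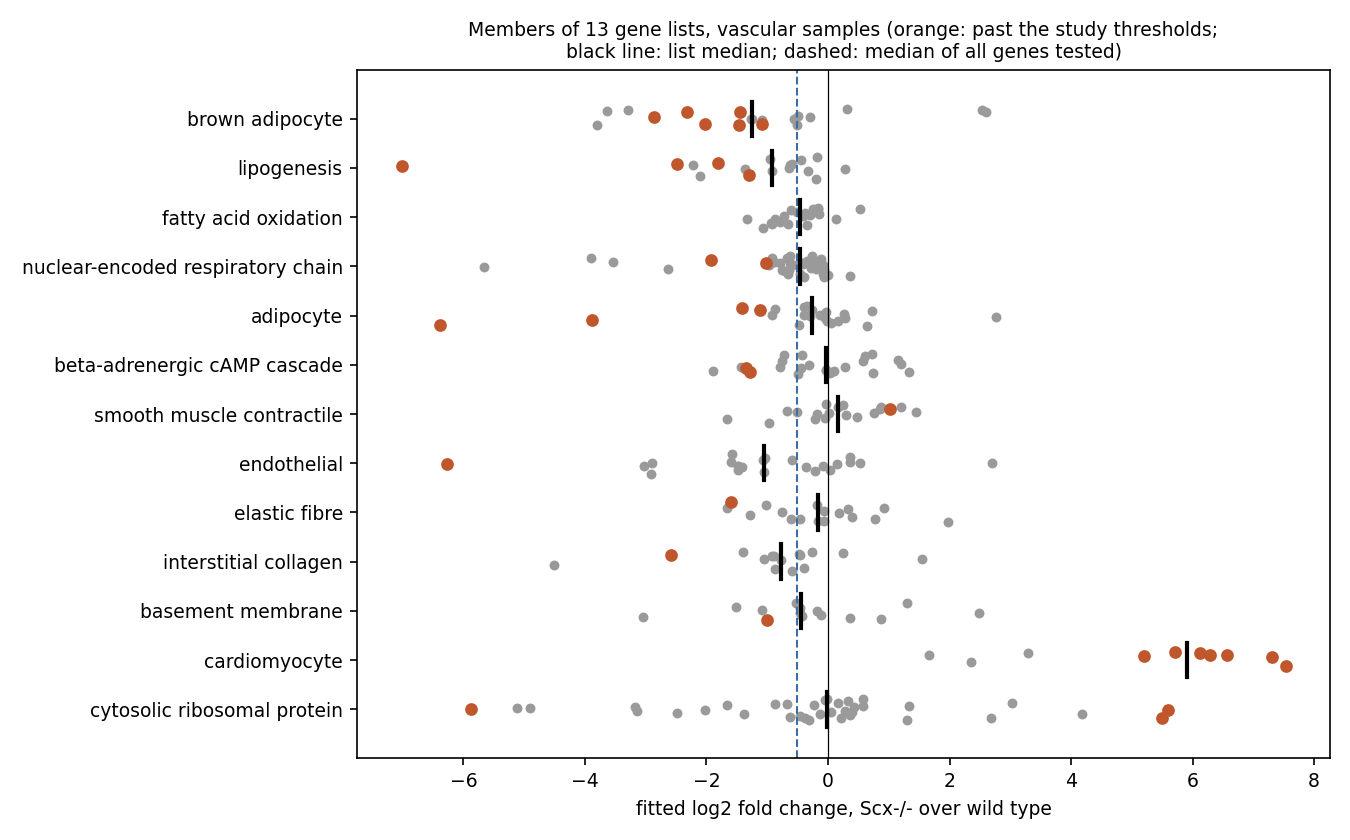
Fitted log2 fold changes of every tested member of 13 gene lists, with members past the study thresholds in orange, the median of each list as a black line, and the median of all genes tested, -0.51, as a dashed line. The brown adipocyte list has its median at -1.25 with 6 orange points, all below 0, while the adipocyte list has its median at -0.26.

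In the beta-adrenergic cyclic AMP cascade, 2 of 23 genes passed the study thresholds, both lower, beside 2.48% lower among all genes. The median log2 fold change was -0.04, which was 0.46 above that of all genes, and 0.38 with library totals. For the list's 15 genes with a mean of at least 50 CPM the median was -0.03, beside -0.15 for all such genes. Gnas, given above, was the 1 member at an adjusted p under 0.05. Prkar2b, a regulatory subunit of protein kinase A that is plentiful in fat, was at 493.2, 452.7, and 645.7 CPM in wild type and 216.1, 570.5, and 78.2 CPM in Scx-/- (log2 fold change -1.35, SE 0.55). Scx-/- replicate 2 lay within the wild-type range, and Prkar2b did not pass without Scx-/- replicate 3 (unadjusted p = 0.0965, edgeR), wild-type replicate 1, or wild-type replicate 3, nor with library totals. Receptors and cyclases were sparse: Adrb1, a beta-adrenergic receptor, was counted in 2 libraries, and no adenylyl cyclase gene of the list exceeded 207.4 CPM in any library.

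The labelled tissue was checked against markers of the vessel wall. Eln, elastin, was at 9490, 18310, and 19130 CPM in wild type and 24300, 10830, and 17060 CPM in Scx-/-, and the elastic fibre list took a larger share of counts in vascular samples than in any other of the 16 tissues, 1.92% on average. Smooth muscle transcripts were present in all libraries, with Acta2, smooth muscle actin, at 2334 to 6549 CPM, and the smooth muscle list ranked 6 of 16 tissues. Of the endothelial genes, Cdh5, the adherens junction cadherin, was at 71.1 to 265.6 CPM, and Cldn5, a tight junction protein, had no count. The brown adipocyte and adipocyte lists also ranked 1 of 16, at 0.961% and 3.04% of counts on average, above 0.330% in heart and 0.822% in cartilage, the next highest tissues.

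Smooth muscle genes gave no call at an adjusted p under 0.05. The list's median log2 fold change was 0.16 over 19 genes, and -0.08 and -0.01 without Scx-/- replicates 1 and 3, and its share of counts overlapped between the genotypes, at 0.820%, 1.34%, and 1.00% against 1.93%, 0.843%, and 1.81%. Tagln, transgelin, was at 775.1, 1184, and 906.8 CPM in wild type and 2253, 1504, and 2414 CPM in Scx-/-, and Cnn1, calponin, at 304.4, 304.0, and 297.7 CPM against 1015, 350.0, and 1006 CPM. Both were higher in every Scx-/- library, Cnn1 past the study thresholds (log2 fold change 1.03, SE 0.51, adjusted p = 0.672, edgeR). Leaving out any 1 library other than Scx-/- replicate 2 took Cnn1 back across the thresholds. Acta2 overlapped between the genotypes, with a log2 fold change of 0.02 (SE 0.27).

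Of the matrix lists of the vessel wall, 1 of 17 elastic fibre genes, 1 of 15 interstitial collagen genes, and 1 of 14 basement membrane genes passed the study thresholds, each lower, beside 2.48% of all genes. Their median log2 fold changes were -0.16 (0.04 with RLE), -0.77, and -0.45, beside -0.51. For their 11, 12, and 12 genes with a mean of at least 50 CPM the medians were -0.46, -0.82, and -0.45, beside -0.15 for all such genes. Mfap5, a further microfibril-associated glycoprotein, was at 163.5, 530.3, and 229.0 CPM in wild type and 1120, 583.4, and 402.4 CPM in Scx-/-, and overlapped. The 2 chains of type I collagen had log2 fold changes of -0.92 (SE 0.28) for Col1a2, at 2737, 4844, and 5578 CPM against 3373, 1569, and 3745 CPM, and -0.88 (SE 0.28) for Col1a1, at 2695, 4288, and 5697 CPM against 3425, 2243, and 3018 CPM. The genotypes overlapped for both, and the adjusted p was 0.672 for each in edgeR's test. Col15a1, a collagen of the basement membrane zone, was at 149.4, 213.4, and 297.7 CPM against 91.7, 0, and 33.5 CPM, and Mfap4, a microfibril-associated glycoprotein, at 239.6, 284.6, and 439.7 CPM against 183.4, 142.6, and 78.2 CPM. Col4a1, a chain of basement membrane collagen, was at 980.8, 1158, and 1053 CPM against 727.0, 726.0, and 626.0 CPM. These last 3 were the only members of their lists past the study thresholds, without overlap, at log2 fold changes of -2.58, -1.60, and -1.01, and Col4a1 and Mfap4 were not past them with RLE. Col15a1 was not past them without wild-type replicate 3, Mfap4 without wild-type replicates 1 or 3 or Scx-/- replicate 3, and Col4a1 without wild-type replicate 1 or Scx-/- replicates 2 or 3.

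Among endothelial genes the median log2 fold change was -1.06 over 23 genes, 1 of which passed the study thresholds, beside 2.48% lower among all genes. Relative to all genes the median stood at -0.55, and at 0.30 without Scx-/- replicate 1. The gene past the thresholds was Emcn, a glycoprotein of capillary and venous endothelium, at 42.3, 58.2, and 55.0 CPM in wild type and at 0 in all Scx-/- libraries, or at least 5.26-fold lower over the pooled counts, and leaving out any library other than wild-type replicate 2 took it back across the thresholds. For the 12 endothelial genes with a mean of at least 50 CPM the median was -0.40, where that of the 3173 such genes overall was -0.15. Aqp1, a water channel, was at 403.0, 607.9, and 416.8 CPM against 275.1, 350.0, and 268.3 CPM and did not overlap, with an adjusted p of 0.672 in edgeR's test.

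Transcripts of other organs were counted unevenly. In Scx-/- replicate 3 the cardiomyocyte list took 0.275% of counts and the hepatocyte list 0.469%, against at most 0.0114% and 0.0398% in the other 5 libraries. Tnnt2 and Myl7, a cardiac troponin and an atrial myosin light chain, were at 480.7 and 413.6 CPM in that library and at 0 in the rest. The cardiac ventricular myosin gene Myh7 and the natriuretic peptide gene Nppa had no count in any library. Of 10 cardiomyocyte genes tested 7 passed the study thresholds as higher, and of 9 hepatocyte genes 3 did, beside 1.71% of all genes, and without Scx-/- replicate 3 none of either list passed. Without the same library Ucp1 had a log2 fold change of -1.73 (adjusted p = 4.89e-06, edgeR). Exocrine pancreas genes took 0.372% in Scx-/- replicate 1 against 0.0521% to 0.152% elsewhere. Red cell genes took 2.07% to 13.5% of counts and overlapped between the genotypes. Macrophage genes took 0.0383%, 0.0388%, and 0.0435% of counts in wild type and 0.0583%, 0.0467%, and 0.0749% in Scx-/-, and skeletal muscle genes 0.0505%, 0.0563%, and 0.0430% against 0.0734%, 0.0804%, and 0.120%, both without overlap. Of 14 macrophage genes, 7 had a log2 fold change below 0 and 7 above, with a median of -0.40. Of 14 skeletal muscle genes, 3 were below and 11 above. The part of these cell types in the differences of other genes was not tested.

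**Figure D4:**
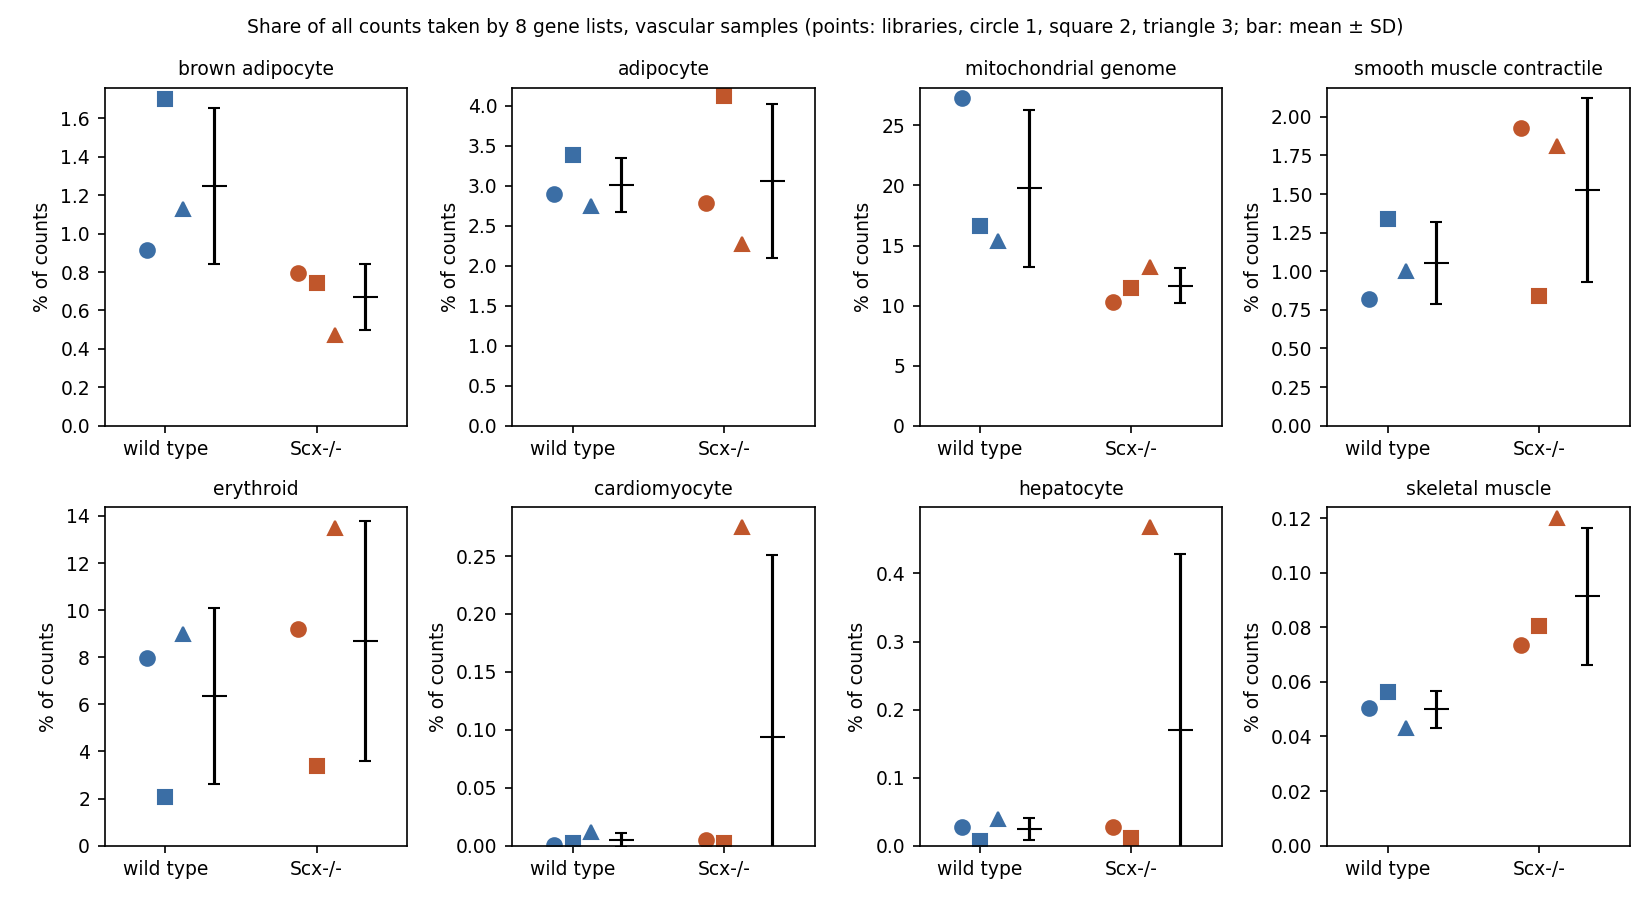
Share of all counts taken by 8 gene lists in each vascular library, on linear axes from 0, with the mean and SD of each genotype. The brown adipocyte and mitochondrial genome lists are lower in all 3 Scx-/- libraries, and the cardiomyocyte and hepatocyte lists are high only in Scx-/- replicate 3, at 0.275% and 0.469%.

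Outside these groups, genes were taken from the 10 higher and 10 lower with the smallest unadjusted p among non-overlapping genes of at least 50 CPM, and those named here had adjusted p-values of 0.672 in edgeR's test. Lower were Npdc1, a neural proliferation and differentiation control gene, at 264.9, 258.7, and 41.2 CPM against 39.3, 0, and 0 CPM, Ackr3, a scavenging receptor of the chemokine Cxcl12, at 143.7, 297.5, and 311.4 CPM against 0, 0, and 100.6 CPM, and Gng11, a G protein gamma subunit, at 124.0, 213.4, and 251.9 CPM against 32.8, 0, and 11.2 CPM. Tpst1, a tyrosine sulfotransferase of the Golgi, had no count in Scx-/- libraries and was at least 11.3-fold lower over the pooled counts. Zkscan6, a zinc finger protein, and Trpm4, a cation channel, had no wild-type count and were at least 29.6-fold and 28.9-fold higher over the pooled counts. Also higher were Gadd45g, a stress-induced growth arrest gene, at 59.2, 25.9, and 45.8 CPM against 91.7, 570.5, and 592.4 CPM, and Smoc1, a matrix protein that modulates BMP signalling, at 62.0, 90.5, and 18.3 CPM against 360.2, 518.6, and 290.6 CPM. Msrb1, a methionine sulfoxide reductase, was at 28.2, 142.3, and 77.9 CPM against 412.6, 700.1, and 212.4 CPM. Ackr3, Gng11, Tpst1, Zkscan6, Trpm4, Smoc1, and Msrb1 passed the study thresholds in every alternative fit, Npdc1 in 15 of 16, and Gadd45g in 16 of 17. Non-overlap alone was found for 7.46% of genes, in the lower direction for 5.06% and in the higher for 2.4%. Among genes of at least 50 CPM it was found in the lower direction for 4.92% and in the higher for 6.68%.

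The remaining lists held few calls, to be read beside 2.48% lower and 1.71% higher among all genes. In the imprinted list Gnas and H19, a growth-restraining noncoding RNA, were lower of 14 tested, with H19 at 138.1, 135.8, and 306.8 CPM against 65.5, 25.9, and 33.5 CPM. The BMP and TGF-beta list had 2 lower and 1 higher of 25, the last being Smad5, a signal transducer of BMP receptors, which had no wild-type count and was at 26.2, 12.96, and 190.0 CPM in Scx-/- and did not pass without Scx-/- replicate 3 or wild-type replicate 1. Dusp1, a phosphatase of MAP kinases, was the 1 immediate early gene past the thresholds, at 236.8, 271.6, and 169.5 CPM against 58.9, 0, and 67.1 CPM. H19 did not pass without wild-type replicate 3, nor Dusp1 without wild-type replicate 1. Ly6a, a surface marker of adventitial cells, was lower of 14 adventitial fibroblast genes, and Hspd1, a mitochondrial chaperone, of 12 heat shock genes. The genotypes overlapped for both, and Ly6a passed in 7 and Hspd1 in 9 of 17 alternative fits. Neither passed with RLE or without wild-type replicates 1 or 3 or Scx-/- replicates 2 or 3. None of 8 tendon genes passed. Of 16 proliferation, 15 clock, and 13 glucocorticoid and fasting genes none passed. The glucocorticoid and fasting list took a higher share of counts in every Scx-/- library, at 0.511%, 0.559%, and 0.547% against 0.308%, 0.378%, and 0.375% in wild type. Txnip, an inhibitor of thioredoxin in that list, was at 662.4, 536.8, and 778.6 CPM in wild type and 1022, 2411, and 1174 CPM in Scx-/-, without overlap (log2 fold change 0.76, adjusted p = 0.672, edgeR). The share of counts in cytosolic ribosomal protein genes was higher in all Scx-/- libraries, at 0.503%, 0.690%, and 0.731% in wild type and 0.815%, 1.02%, and 0.879% in Scx-/-, while the list's median log2 fold change was -0.02 with TMM and 0.43 with library totals.

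Ucp1 was also counted in other tissues of the survey, in smaller numbers. Summed over 3 libraries, vascular samples held 3396 counts in wild type and 569 in Scx-/-. Such sums do not allow for depth, which was greater in the wild-type vascular libraries. In mean CPM the vascular ratio was 3.32. Muscle held 237 and 0, cartilage 191 and 8, kidney 130 and 15, and bladder 52 and 2. Bone had the opposite order, with 0 and 10, all 10 in Scx-/- replicate 1. The counts came from single libraries in part: muscle wild-type replicate 2 held 227 of 237, and bladder wild-type replicate 3 held 51 of 52. The samples labelled adipose held 3 and 7 counts, and 56.9% of their counts on average were in pancreatic acinar genes. In a fit of vascular and bladder samples together the genotype difference in Ucp1 did not differ between the tissues beyond its error (difference of log2 fold changes 2.03, SE 2.38, adjusted p = 1.00, edgeR). Bladder held 1, 0, and 51 counts in wild type and 2, 0, and 0 in Scx-/-, so this fit cannot tell whether the tissues share the difference.

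**Figure D5:**
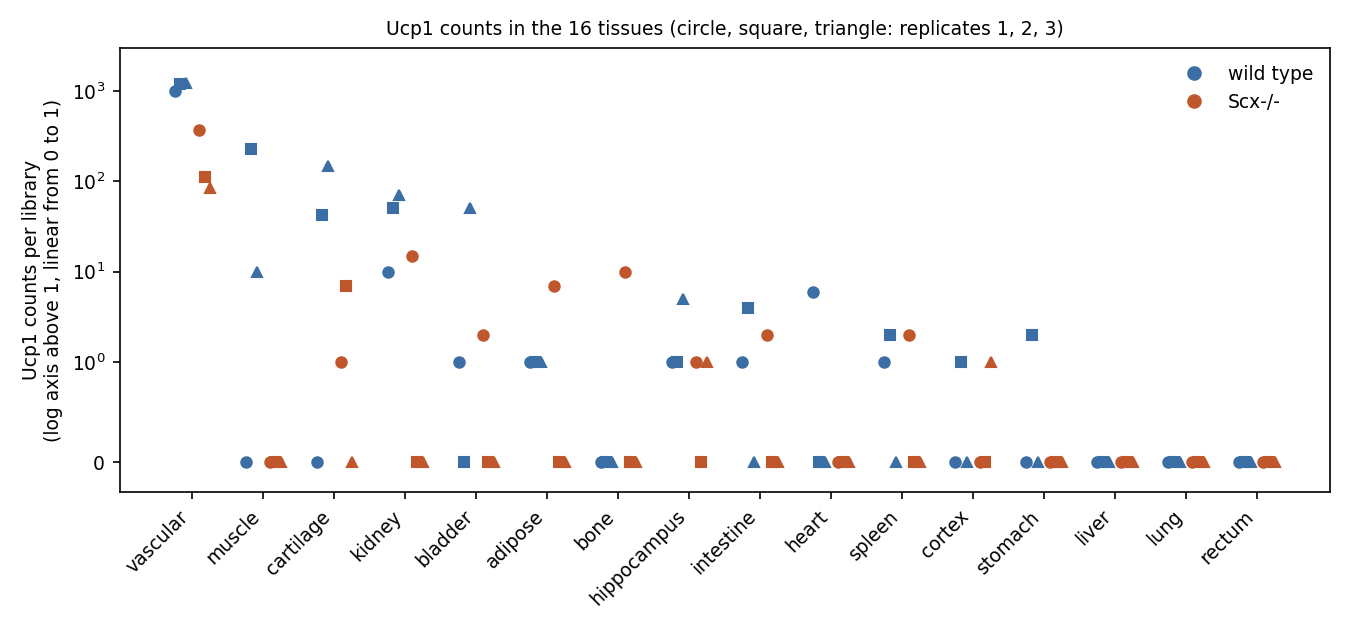
Counts of Ucp1 in each of the 96 libraries by tissue and genotype, on an axis that is logarithmic above 1 and linear from 0 to 1. Vascular libraries hold 84 to 1209 counts, and of the other tissues 1 wild-type muscle library (227) and 1 wild-type cartilage library (149) lie above the 2 lowest vascular libraries, Scx-/- replicates 2 and 3 (112 and 84).

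Whether the genotype difference in vascular samples was unlike that in bladder and stomach, organs with a thick smooth muscle wall, was tested by an interaction term in edgeR. Against bladder, 0 of 15947 genes (0.0%) reached an adjusted p under 0.05, and 959 did so at an unadjusted p under 0.05. Against stomach, 4 of 15743 did (0.0254%): Alas2, Cpb1, Ezr, and Ssh2. Of these, Ezr and Ssh2 did not overlap between the genotypes in vascular samples, as was found for 7.46% of all genes tested there. Ezr, a linker of membrane and actin in epithelia, was at 59.2, 25.9, and 4.58 CPM in wild-type vascular libraries and at 0 in Scx-/-, and Ssh2, a cofilin phosphatase, at 11.3, 0, and 0 CPM against 85.1, 13, and 436 CPM. The separation rested on few counts: Ezr had 21, 4, and 1 in wild type, and Ssh2 4, 0, and 0 in wild type and 13, 1, and 39 in Scx-/-. The 3-count limit was 19.7 to 38.9 CPM in Scx-/- libraries. The vascular adjusted p of Ssh2 was 0.672 in edgeR's test. Sex-linked transcripts marked the same replicate numbers in all 3 organs, 6 of 6 libraries in bladder and in stomach, so libraries of the same number may share a mouse. With 1 mouse assumed per genotype and number, none of these 4 genes kept an adjusted p under 0.05.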

How the data were processed

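Counts of reads per gene symbol were deposited by the authors as whole numbers without normalization, made by mapping to mm10 with Bowtie2 and counting with HTSeq. Not given in the sources used here were tool versions, the annotation, the strand setting, and any use of molecular identifiers. Groups were taken from sample labels, and every column was mapped.

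Genes with no count in the 6 vascular libraries were removed. The genotypes were compared with edgeR 4.0.16 in R 4.3.3 (TMM, robust glmQLFit, glmQLFTest, Benjamini-Hochberg), where the authors had used DESeq2. CPM are counts scaled to the library total. Depth was 77132 to 354795 counts, and limits from 3 counts cover counting error only. Replicates differed beyond counting error (chi-square per degree of freedom from 10.6 to 16.2), so none was taken as a repeat. The fits were tested on simulated data with known changes, most of which did not reach an adjusted p under 0.05.

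The genes and the 35 lists were chosen with earlier results of these data known. Named genes were Scx, those at an adjusted p under 0.05, the 10 higher and 10 lower with the smallest p among non-overlapping genes past the study thresholds with at least 50 CPM, the 3 most counted and any called member (at least 50 CPM) of each list, and all members of the brown adipocyte, beta-adrenergic, and sex-linked lists. Others, such as Hbb-bs, Adrb1, Myh7, and Cldn5, were chosen after their values were seen, as were Alas2, Cpb1, and Ezr, and not every gene the rule covers is reported here. Alternatives were RLE and library totals, filterByExpr, DESeq2 1.42.0, replicate and Xist terms, thinning, a joint fit, gene sets left out, and each library left out. Promoters and coordinates are from RefSeq GRCm38.p6. Python 3.11.15 was used with pandas 2.3.3 and matplotlib 3.10.9.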

Additional observations from a re-analysis of the deposited data

Results flagged for a closer look

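Against stomach, 4 genes had a genotype difference in vascular samples that differed by a test of the interaction term (edgeR). The vascular minus the stomach log2 fold change was -4.10 for Alas2 (SE 0.84, adjusted p = 0.00936), the first enzyme of heme synthesis in red cells, which was at 0 to 6.81 CPM in wild-type and 32.3 to 130 CPM in Scx-/- stomach and overlapped in vascular samples. It was -4.48 for Cpb1 (SE 0.90, adjusted p = 0.00936), a pancreatic carboxypeptidase, which was at 1860 CPM in stomach Scx-/- replicate 1 and 56.5 and 542 CPM in the others, against 22.7 to 32.9 CPM in wild type. For Ezr it was -6.27 (SE 1.40, adjusted p = 0.0375), with stomach at 497 to 831 CPM in both genotypes. For Ssh2 it was 10.9 (SE 2.47, adjusted p = 0.0375), with 17, 4, and 11 counts in wild-type and none in Scx-/- stomach, the opposite order to vascular samples. With the filter filterByExpr the adjusted p of these genes lay between 0.109 and 0.623. The adjusted p was also above 0.05 without vascular wild-type replicate 3 for Alas2 (0.148), without wild-type replicate 1 (0.38) or Scx-/- replicates 2 (0.751) or 3 (0.677) for Cpb1, without wild-type replicate 1 (0.836) or Scx-/- replicates 1 (0.0881) or 3 (0.0637) for Ezr, and without wild-type replicates 2 (0.17) or 3 (0.148) or Scx-/- replicate 3 (0.571) for Ssh2. With RLE it was 0.0528 for Ezr.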

How the results depend on the processing

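The log2 fold changes of Ucp1, Car3, Gnas, and Rnr1 were below 0 in all fits made. Ucp1 lost its adjusted p under 0.05 with filterByExpr (0.0708), the joint fit with bladder and stomach (0.441), and DESeq2 (0.133), and in no fit without 1 library. An adjusted p under 0.05 was found in 5 of 17 alternatives for Car3, 4 of 17 for Gnas, and 10 of 16 for Rnr1. The count at an adjusted p under 0.05, 4 in the report, was 2 with RLE size factors, 2 with library totals, 0 with filterByExpr (110 at an unadjusted p under 0.05), 26 with the joint fit, 0 with DESeq2 (429 unadjusted), and 3 to 5 without 1 library. The 510 genes past the study thresholds became 94 with filterByExpr, 142 with the replicate block, 336 thinned, 1538 with the joint fit, 254 with the Xist term, which was added after the data were seen, and 203 to 500 without 1 library, of which 203, 216, and 233 were without wild-type replicates 1, 2, and 3. Same-numbered wild-type and Scx-/- libraries had correlations of deviations of -0.005, -0.031, and 0.012, so the numbers did not pair them. With the replicate block 4 genes had an adjusted p under 0.05: Ucp1, Car3, and Rnr1, which kept it, and Rnr2, while Gnas lost it. The interaction with bladder, 0 in the report, gave 1 with the replicate block and 0 to 9 without 1 library, 9 without Scx-/- replicate 1. The interaction with stomach, 4 in the report, gave 0 with filterByExpr, 0 with the replicate block, 1 with 1 mouse assumed per genotype and number, also added after the data were seen, and 3 to 13 without 1 library, 13 without Scx-/- replicate 1. The cause of these changes was not tested, except that filterByExpr tested 2388 genes. List medians moved by less than 1 SD of the list's summed log2 level between replicates in 502 comparisons and by more in 84. Libraries of 77132 to 354795 counts limit what can be seen for genes with few counts.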

Other observations

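The beta-globin genes separated wild-type replicate 2 from every other library. Hbb-b1 and Hbb-bs belong to different strain haplotypes of the beta-globin locus and are near-identical, so counts can be split between them. Hbb-bs took 47.3% of the summed counts of Hbb-b1 and Hbb-bs in vascular wild-type replicate 2 and at most 0.0126% in the other 5 vascular libraries. The same replicate number took 39.3% to 63.4% in all 16 tissues, and none of the 80 other libraries exceeded 0.672%. Sex-linked transcripts matched the vascular pattern in all 6 libraries for 11 of 15 other tissues. Wild-type replicate 2 was also the vascular library with the highest Ucp1, Fasn, Me1, and Scd1. Without it the Ucp1 log2 fold change was -1.79 (SE 0.35, adjusted p = 0.00149, edgeR), and the part of the haplotype in these values was not tested.

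Myl4, an atrial myosin light chain, Mybpc3, and Myh6 had 324.2, 178.8, and 201.2 CPM in Scx-/- replicate 3 and none in the other Scx-/- libraries. Alb, the most abundant plasma protein of the liver, was at 2694 CPM in the same library, and at 0 to 261.0 CPM in the other 5.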
